A study of Mus musculus with 4 samples.

Results

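The genes described here encode the respiratory chain and the ATP synthase of mitochondria, in dendritic cells sorted from mouse spleen. They were chosen by symbol: every row of the deposited table named as a subunit of complexes I to V, as cytochrome c or as one of the mitochondrially encoded mRNAs, with pseudogenes left out. The rule found 104 of 17300 genes, 91 encoded in the nucleus and 13 in mitochondrial DNA. Of the nuclear genes, 81 encode subunits, counting cytochrome c, and 10 were set apart by role: 8 complex I assembly factors (Ndufaf genes) that the prefix Ndufa also matches, Cox7a2l, a factor of supercomplex assembly, and Atp5s, a factor related to the ATP synthase.

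RNA was compared between 2 samples with the genotype label KO, titled EKO, and 2 with the label WT. The column names of the table add the word Allo to all 4 libraries, which may refer to a treatment or a transplant and is not explained. No label spells out which gene was deleted, nor the strain, age, sex, treatment or sorting gate. The series title concerns the inhibitory receptor Siglec-E, and its gene Siglece stood at 8.92 and 8.96 in KO and at 10.38 and 10.14 in WT (log2 values). The KO libraries are called KO A and KO B because their columns carry other numbers than the KO titles. The labels do not say that samples came from separate animals, so a p-value here measures only how these 4 samples scatter, and that scatter may be technical.

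Electrons enter the chain at complex I from NADH and at complex II from succinate, pass through complex III and cytochrome c to oxygen at complex IV, and the proton gradient that complexes I, III and IV build drives the ATP synthase, complex V. Complexes I, III, IV and V are built from subunits of both genomes, whereas complex II is encoded in the nucleus alone. Mitochondrial DNA is transcribed from both strands as long precursors that are cut into single RNAs. In dendritic cells, respiration is known chiefly from the shift toward glycolysis that follows activation of cultured cells by microbial ligands.

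The 13 mitochondrial mRNA genes lie end to end, and some share bases. In the GENCODE M21 annotation, mt-Atp8 and mt-Atp6 overlap by 43 bases, mt-Nd4l and mt-Nd4 by 7, and mt-Atp6 and mt-Co3 by 1. mt-Nd5 and mt-Nd6 overlap by 14 bases on opposite strands. Reads in a stretch shared on 1 strand belong to both genes, so the values within such a pair are not fully separate, and whether the counting used strand is not stated. The longest 2 stretches shared on 1 strand are shown 5′ to 3′, with the shared bases in capitals and 15 bases of the single genes on either side.
mt-Atp8 and mt-Atp6: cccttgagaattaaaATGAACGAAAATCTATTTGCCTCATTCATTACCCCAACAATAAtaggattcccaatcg
mt-Nd4l and mt-Nd4: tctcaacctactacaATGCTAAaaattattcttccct

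Nuclear genes of the chain lie scattered over the chromosomes, and their promoters are known for sites of the factors NRF1 and of the ETS family (GABPA), with YY1 at some. RefSeq promoters (GRCm38.p6, 250 bases before to 50 after the start) were used for 66 of 81 nuclear subunits, 71 promoters in all. Besides genes without a match, subunit promoters on 1 chromosome were left out, a filter not applied to the set of all promoters. Both strands were searched for the NRF1 palindrome (GCGCA joined to its reverse complement TGCGC), for CCGGAAG of ETS factors and for AAGATGGCG of YY1. An ETS match that ends in AAG can share those bases with a YY1 match, and a YY1 match that ends in GCG can share them with an NRF1 match. The NRF1 letters were in 5 of 71 promoters (7.04%) against 0.971% of all 32851 promoters in the table. The ETS letters were in 16 (22.5%) against 8.86%, and the YY1 letters in 7 (9.86%) against 1.40%. GGGCGGGG, the letters of an SP1 site, was in 16.9% of subunit promoters and in 17.6% of all. The subunit promoters were also richer in G and C, with a median of 58.3% against 52.7%. A match is a description of letters and not a measured site. The 3 promoters below, 1 each from complexes III, IV and V, are shown because they hold the NRF1 letters, in capitals. Those of Cox6a1 and Atp5k also hold the ETS letters, in capitals and on the other strand, nearer to the start.
Uqcrc1 (chr9:108936398-108936697, plus strand): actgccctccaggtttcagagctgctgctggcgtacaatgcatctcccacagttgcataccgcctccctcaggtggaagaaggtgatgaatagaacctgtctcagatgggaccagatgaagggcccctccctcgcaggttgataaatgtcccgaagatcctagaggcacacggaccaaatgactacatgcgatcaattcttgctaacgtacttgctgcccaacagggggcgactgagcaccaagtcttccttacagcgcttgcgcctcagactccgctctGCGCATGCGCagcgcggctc
Cox6a1 (chr5:115348909-115349208, minus strand): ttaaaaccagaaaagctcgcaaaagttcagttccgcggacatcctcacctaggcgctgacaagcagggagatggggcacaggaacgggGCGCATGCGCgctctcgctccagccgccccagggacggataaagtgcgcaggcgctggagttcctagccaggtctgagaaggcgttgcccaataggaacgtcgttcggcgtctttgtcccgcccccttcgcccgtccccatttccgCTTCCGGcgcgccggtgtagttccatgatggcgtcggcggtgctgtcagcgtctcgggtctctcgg
Atp5k (chr5:108434350-108434649, minus strand): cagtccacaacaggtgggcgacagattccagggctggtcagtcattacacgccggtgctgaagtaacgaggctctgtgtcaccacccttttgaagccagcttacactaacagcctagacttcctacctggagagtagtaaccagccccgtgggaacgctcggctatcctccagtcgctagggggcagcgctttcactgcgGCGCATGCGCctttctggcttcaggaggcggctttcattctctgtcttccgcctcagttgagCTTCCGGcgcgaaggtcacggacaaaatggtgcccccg

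No gene of the respiratory chain passed the test of KO against WT. Of the 104 genes 101 were tested, and 0 had an adjusted p under 0.05 (limma, Benjamini-Hochberg over 11864 genes), against 6.93% of all tested genes (4.69% higher and 2.23% lower in KO). The smallest adjusted p was 0.0899, for Ndufb2. At an unadjusted p under 0.05 there were 6 members, 1 higher and 5 lower in KO, which is 5.94% of the members against 24.7% of all tested genes. On the scale of the deposited values the differences were small: 93 of 101 members (92.1%) lay within 0.25 log2 units of 0, against 76.4% of all tested genes. Of the nuclear members 85 of 88 lay within that limit, and of the mitochondrial mRNAs 8 of 13. The limit is not one of fold change. Ndufc1 and Ndufaf3 lay within it, with normalized counts in KO at 0.736 and 1.35 of WT. For 93 members the 95% interval of the difference stayed within 0.5 log2 units of 0 (92.1%, against 75.8% of all tested genes). On the deposited scale this bounds the size for 87 of 88 nuclear members but for only 6 of 13 mitochondrial mRNAs. That scale compresses differences at low counts, so it does not bound fold changes equally for nuclear and mitochondrial genes. Ndufaf6 differed by -0.28 on it and by -0.77 in log2 of the count plus 1, after undoing the authors' transform. For mt-Co1, at high counts, these differences were -0.242 and -0.244. The median difference was -0.02 over the members and -0.0017 over all tested genes. KO and WT libraries did not overlap in 10 members with KO higher (28.1% of all tested genes) and in 27 with KO lower (28.2%).

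**Figure D1:**
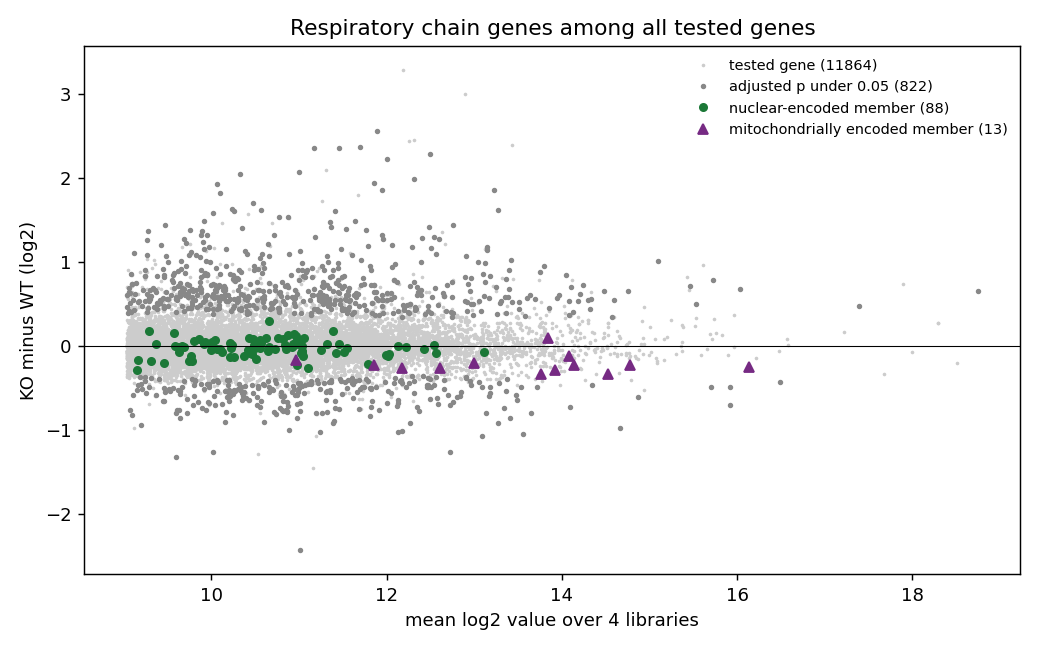
KO minus WT difference (log2) against the mean log2 value of 4 libraries for 11864 tested genes, with the 822 past an adjusted p of 0.05 in dark grey, 88 nuclear-encoded members as green circles and 13 mitochondrially encoded members as purple triangles. The members lie close to 0, and 12 of 13 triangles lie below it.

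Some library facts bear on these values. Back-transformed counts, which are normalized counts after undoing the authors' transform, summed to between 29002408 and 30952251 per library. All 13 markers of dendritic cells chosen for this report were in the table, none at its lowest value everywhere. Their summed counts were 433306 to 473434 in KO and 607071 to 631556 in WT, with 10 of 13 genes lower past the threshold. Markers of other cells were higher in KO: NK cell genes (10 of 12 past the threshold) summed to 21479 to 25495 against 12135 to 12160, and erythroid genes (8 of 16) to 62181 to 87561 against 10246 to 30412. Macrophage genes (5 of 13) summed to 26696 to 36071 against 14661 to 17058, monocyte genes (6 of 12) to 172045 to 179912 against 96662 to 110135, and neutrophil genes (4 of 13) to 244224 to 259886 against 84846 to 221956. In the other direction, 1 of 12 NK cell genes and 1 of 16 erythroid genes had a difference below 0. B and T cell lists had 1 gene each past the threshold, of 10 and of 5 tested. Over all tested genes 4.69% were higher and 2.23% lower past the threshold, and 1 call in so short a list says little. KO A held less RNA of the Y-linked gene Ddx3y, at 8.74 against 11.82 to 12.13 elsewhere. The libraries may therefore differ in sex, and KO A and KO B in the animals they came from. What part cell mixture or sex has in the values of the chain was not tested, and in bulk RNA fewer cells of a type and less RNA per cell cannot be told apart.

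The mRNAs encoded in mitochondrial DNA were lower on average in KO, but 1 WT library set most of that difference. Of 13, 12 had a mean difference below 0 and 0 passed the threshold. The median difference over the 13 was -0.22. Set against a single WT library it was -0.36 for WT 1 and -0.08 for WT 2. WT 1 was the highest of the 4 libraries in 12 of 13 (24.6% of all tested genes), and KO B the lowest in 11 (27.9%). KO B was also the lowest in 54 of 79 nuclear subunits. Both KO libraries lay below both WT libraries in 8 of 13 mitochondrial mRNAs, against 28.2% of all tested genes. These mRNAs are cut from shared precursors, so such counts are not counts of separate observations. As a share of all counts, the 13 mRNAs together made up 0.690% of KO A and 0.648% of KO B, compared with 0.906% of WT 1 and 0.745% of WT 2. The KO values lie below both WT values, and the WT libraries differ from each other by more than WT 2 differs from KO A.

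**Figure D2:**
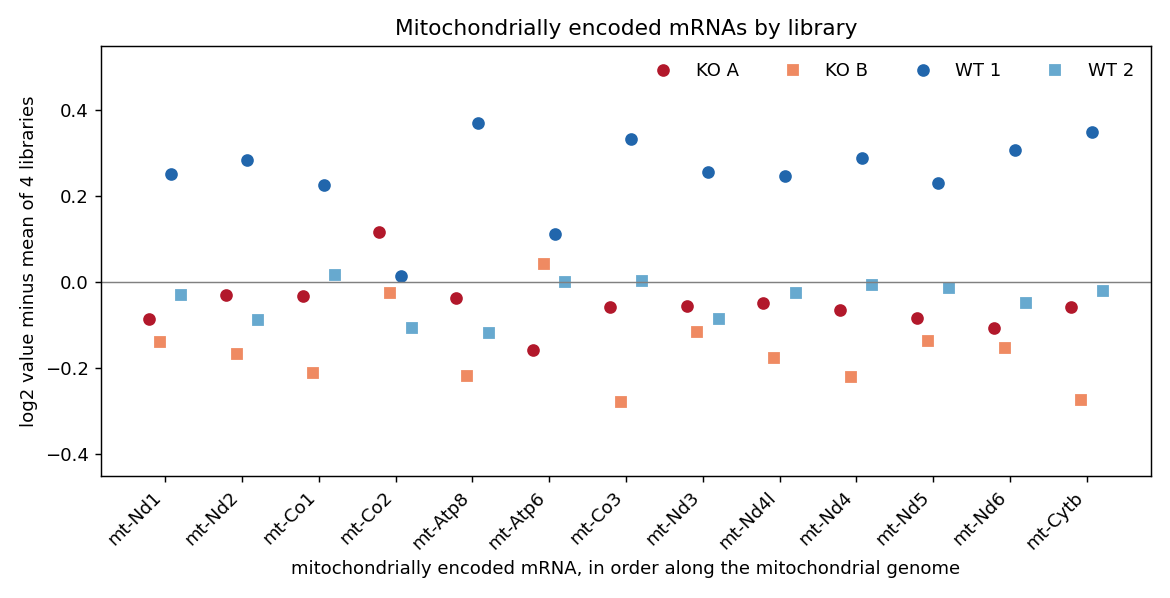
Value of each mitochondrially encoded mRNA minus its mean over the 4 libraries (log2), in gene order along mitochondrial DNA, for KO A, KO B, WT 1 and WT 2. WT 1 (dark blue circles) is highest for every mRNA but mt-Co2, where KO A is highest.

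Complex IV holds the most abundant and the most divergent of them. mt-Co1, its catalytic subunit and the most abundant mitochondrial mRNA per length (46657 back-transformed counts per kilobase), stood at 16.11 and 15.93 in KO A and KO B and at 16.37 and 16.16 in WT 1 and WT 2. The difference was -0.24 (SE 0.115, adjusted p = 0.254 in limma), with KO A just below WT 2 and KO B further below it. mt-Co3, a core subunit, had the lowest difference of all 101 members: 13.70 and 13.48 in KO against 14.09 and 13.76 in WT, -0.34 (95% interval -0.66 to -0.01, adjusted p = 0.185). Its counts in KO were 0.782 of those in WT. mt-Co2, which holds the first copper centre of the complex, went the other way, with 13.96 and 13.82 in KO against 13.85 and 13.73 in WT (0.09, adjusted p = 0.584). The mt-Co2 groups overlapped. Set against the median of the 13 mRNAs in the same library, mt-Co2 was at 0.10 and 0.12 in KO and at -0.24 and -0.03 in WT, and it was the sole mRNA whose KO libraries both lay above both WT libraries on this relative scale.

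In complex III the mitochondrial subunit is cytochrome b. mt-Cytb was at 14.47 and 14.25 in KO and at 14.87 and 14.50 in WT, a difference of -0.33 (95% interval -0.67 to 0.01, adjusted p = 0.218). KO A lay only just below WT 2, and KO B and WT 1 were the extremes. Of the ATP synthase, mt-Atp8, a subunit of the peripheral part of the membrane domain, stood at 12.15 and 11.96 against 12.55 and 12.06 (-0.25, adjusted p = 0.394). mt-Atp6, whose product forms the proton path with subunit c, stood at 13.92 and 14.12 against 14.19 and 14.08 (-0.11, adjusted p = 0.533). KO A was lowest for mt-Atp6, though the gene shares 43 bases with mt-Atp8, in which KO B was lowest.

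The 7 mitochondrial subunits of complex I are core parts of its membrane arm and varied alike across libraries. In all 7, WT 1 was highest and KO B lowest, and their differences ran from -0.28 for mt-Nd4 to -0.17 for mt-Nd3. mt-Nd4 was at 13.86 and 13.70 in KO against 14.21 and 13.91 in WT (adjusted p = 0.212). mt-Nd6, the sole mRNA on the minus strand and therefore from the other precursor, was at 12.51 and 12.46 against 12.92 and 12.56 (-0.26, adjusted p = 0.261), within the range of the others. mt-Nd1, mt-Nd2, mt-Nd4l and mt-Nd5 had differences of -0.22, -0.20, -0.22 and -0.22, with adjusted p of 0.271, 0.419, 0.282 and 0.260 in limma. For mt-Nd3 the adjusted p was 0.457. Per length, these mRNAs ranged from 18404 back-transformed counts per kilobase for mt-Nd1 to 4383 for mt-Nd3. mt-Nd4 and mt-Nd4l, which lie on 1 stretch, were at 10956 and 10816.

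Nuclear-encoded subunits showed no common shift with genotype. Their median difference over 79 tested was -0.01, with 44 below and 35 above 0. On the deposited scale, which compresses differences at low counts, 77 of 79 lay within 0.25 log2 units. By complex, the median was -0.02 for the 38 subunits of complex I, -0.04 for the 4 of complex II, 0.05 for the 9 of complex III, 0.02 for the 11 tested of complex IV and -0.04 for the 16 of complex V. Against WT 1 alone the median over all 79 was 0.01 and against WT 2 alone -0.03. The balance between the genomes set WT 1 apart, while WT 2 lay beside the KO libraries. The mean log2 value of mitochondrial mRNAs exceeded that of nuclear subunits by 2.72 in KO A and 2.75 in KO B. The excess was 3.10 in WT 1 and 2.77 in WT 2. These are differences within a library between levels that are not scaled by length. The mitochondrial mean was 13.77 in WT 1 and 13.36 to 13.48 in the other libraries. KO B had the lowest mitochondrial mean and also the lowest nuclear mean, 10.61 against 10.67 to 10.75.

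**Figure D3:**
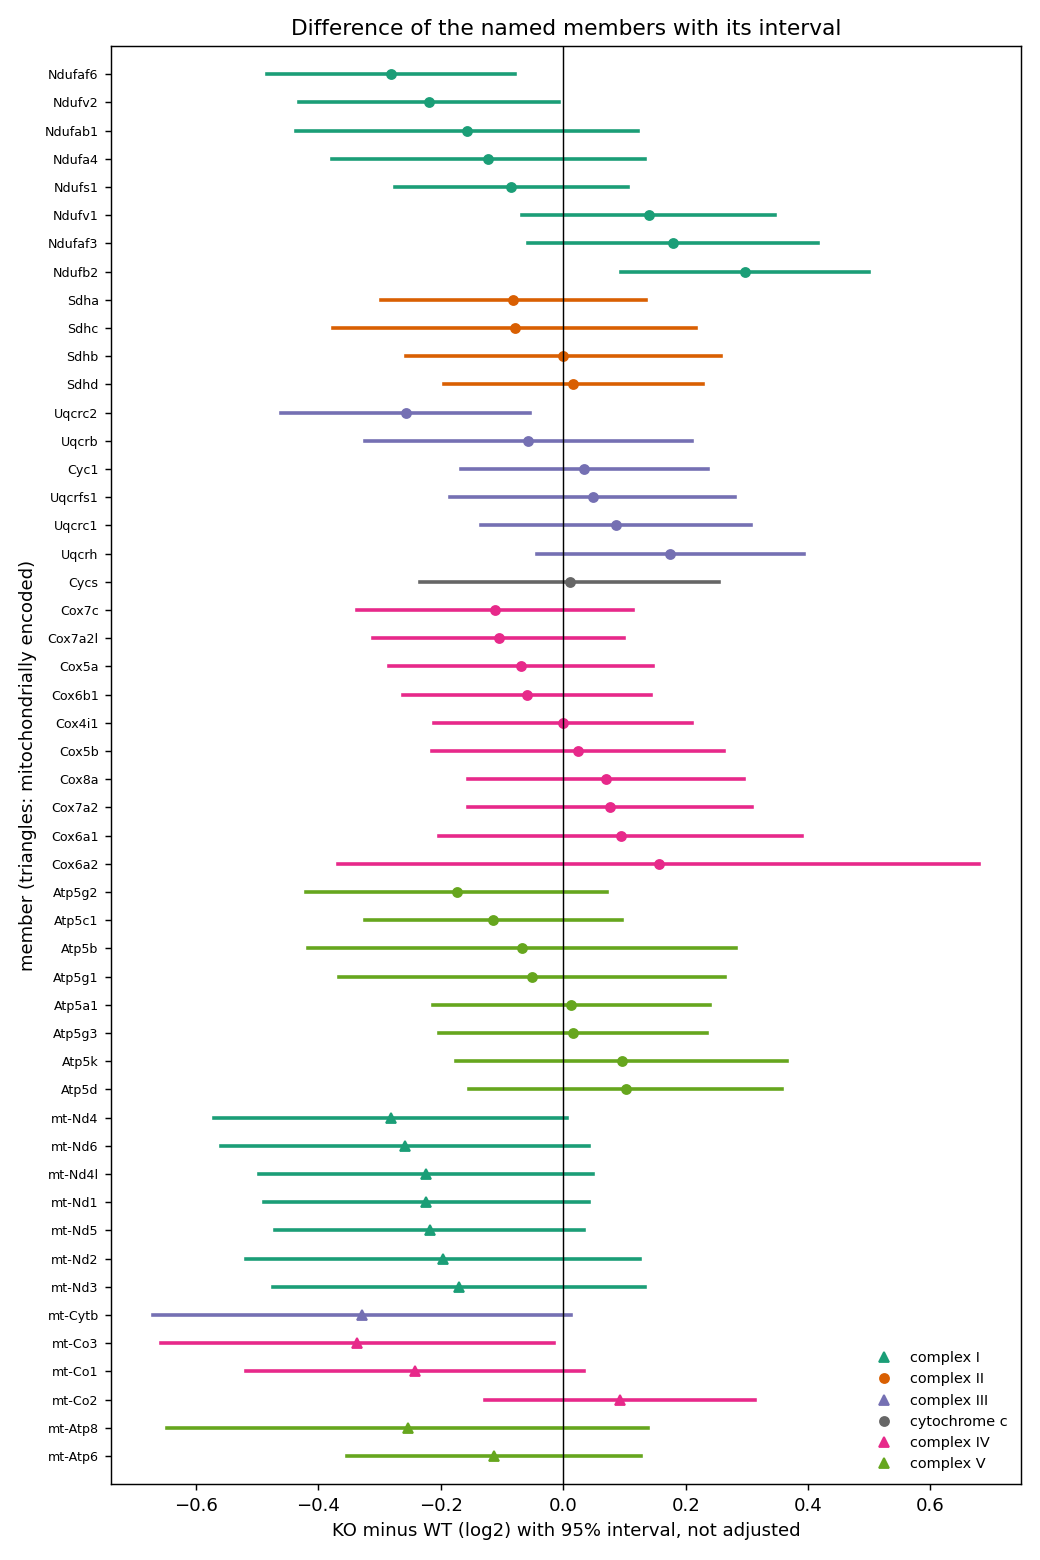
KO minus WT difference (log2, points) with its unadjusted 95% interval (lines) for 50 tested members that the text names by rule, coloured by complex, circles for nuclear and triangles for mitochondrial genes. Intervals of Ndufb2, Ndufaf6, Uqcrc2, Ndufv2 and mt-Co3 leave 0 out before adjustment, and none of the 50 passed after it.

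Complex I had the member nearest to the threshold. Ndufb2, an accessory subunit of the membrane arm, stood at 10.81 and 10.80 in KO and at 10.53 and 10.50 in WT, a difference of 0.30 (SE 0.0841, 95% interval 0.10 to 0.50, adjusted p = 0.0899). The groups did not overlap and counts were 1.33-fold of WT. In its core, Ndufv2, an iron-sulfur subunit of the NADH module, was at 10.90 and 10.84 against 11.14 and 11.04 (-0.22, adjusted p = 0.191). It was lower in each KO library than in either WT library, as 14 of 79 nuclear subunits were, against 28.2% of all tested genes. Ndufv1, the flavin subunit that binds NADH beside Ndufv2, lay the other way at 10.98 and 10.91 against 10.78 and 10.83 (0.14, adjusted p = 0.373). Ndufs1, the largest subunit of that module, differed by -0.08 (adjusted p = 0.562). The mean differences in this module thus did not share a sign, but none passed the threshold, so unlike directions are not established.

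Of the accessory subunits, Ndufab1, the mitochondrial acyl carrier protein, differed by -0.16 (adjusted p = 0.457) and Ndufa4 by -0.12 (adjusted p = 0.528). Ndufa4 is now known as a subunit of complex IV, but by its symbol it is counted with complex I throughout. The 14 Ndufa subunits had a median of -0.02, the 13 Ndufb and Ndufc subunits -0.01 and the 11 Ndufs and Ndufv subunits -0.07. Ndufb4 and Ndufb4c are copies of each other, and the counting could have split their reads. Among the 9 assembly factors tested, 6 were below and 3 above 0. Ndufaf6, a factor of complex I assembly, was at 8.97 and 9.05 in KO against 9.33 and 9.25 in WT (-0.28, adjusted p = 0.102), with 0.587 of WT counts at a low level. Ndufaf3, which acts early in assembly, was at 9.41 and 9.34 against 9.30 and 9.10 (0.18, adjusted p = 0.319). Cox7a2l differed by -0.11 (adjusted p = 0.498), and Atp5s, at 8.63 and 8.84 in KO with the WT values on either side of both, was below the filter.

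All 4 subunits of complex II overlapped between the groups. Sdha, the flavoprotein that oxidizes succinate, stood at 12.57 and 12.49 in KO and at 12.53 and 12.69 in WT (-0.08, adjusted p = 0.631). The iron-sulfur subunit Sdhb, at 11.14 and 10.93 against 10.97 and 11.10, had a mean difference of 0.0002 (95% interval -0.26 to 0.26). The membrane anchors Sdhc and Sdhd differed by -0.08 and 0.02 (adjusted p = 0.743 and 0.936).

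The mean differences of complex III subunits did not share a sign, and none passed the threshold. Uqcrc2, a core protein, stood at 11.02 and 10.94 in KO against 11.23 and 11.25 in WT (-0.26, 95% interval -0.46 to -0.05, adjusted p = 0.125), whereas its partner Uqcrc1 was at 10.93 and 10.79 against 10.78 and 10.77 (0.09, adjusted p = 0.619). The groups overlapped for neither gene. Uqcrh, the hinge protein beside cytochrome c1, was at 11.56 and 11.40 against 11.29 and 11.31 (0.18, adjusted p = 0.294). Uqcrfs1, the Rieske iron-sulfur protein, and Uqcrb, which binds quinone, differed by 0.05 and -0.06 (adjusted p = 0.810 and 0.801). Cyc1, cytochrome c1, was at 10.58 and 10.59 against 10.55 and 10.56 (0.03, adjusted p = 0.847). Cycs, the mobile cytochrome c, which also starts apoptosis when released, was at 11.01 and 10.90 against 11.04 and 10.85 (0.01, adjusted p = 0.968).

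Complex IV includes pairs of isoforms, 1 broadly expressed and 1 typical of muscle or germ cells. Cox4i1, the regulatory subunit, was at 12.21 and 12.06 in KO and at 12.13 and 12.14 in WT, with a mean difference of -0.0009 (95% interval -0.21 to 0.21). Cox5a and Cox5b, next to it in the complex, differed by -0.07 and 0.02 (adjusted p = 0.690 and 0.913). Cox6b1, Cox7a2, Cox7c and Cox8a differed by -0.06, 0.08, -0.11 and 0.07, each with an adjusted p over 0.5. Cox6b2 and Cox7a1, the isoforms of testis and of muscle, were below the filter and not tested, with mean back-transformed counts of 53.3 and 31.9 against 1118 for Cox6b1 and 594 for Cox7a2. Per kilobase of annotated transcript these were 96.4 and 81.2 against 1810 and 902. No row was matched for Cox4i2, Cox8b, Cox8c or Ndufa4l2, which are not analysed here.

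Cox6a2, the muscle isoform of subunit VIa that is also typical of plasmacytoid dendritic cells, was well detected and varied most of all nuclear subunits. It stood at 10.01 and 9.30 in the KO pair (A, B) and at 9.42 and 9.57 in the WT pair, so KO A was high and the other libraries lay closer together. Per kilobase of annotated transcript, Cox6a2 had 842, 315, 385 and 482 counts in the same order, and the broad isoform Cox6a1 had 2273, 1786, 1662 and 2039. The group difference of Cox6a2 was 0.16 (SE 0.218, adjusted p = 0.711), with the widest interval of all tested nuclear subunits, -0.37 to 0.68. Cox6a1 differed by 0.09 (adjusted p = 0.693). In the same libraries, 7 other genes of plasmacytoid dendritic cells summed to 43367 and 24277 counts in the KO pair and to 23622 and 29756 in the WT pair, with KO A again the highest. The part of that cell type in the values of Cox6a2 was not tested.

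The 16 nuclear subunits of the ATP synthase had differences from -0.17 to 0.10. Atp5b, the catalytic beta subunit, stood at 13.27 and 12.89 in KO and at 13.02 and 13.27 in WT, with a wider spread within groups than between them (-0.07, adjusted p = 0.823). Atp5a1, the alpha subunit, was at 12.64 and 12.46 against 12.50 and 12.58 (0.01, adjusted p = 0.953). The central stalk subunits Atp5c1 and Atp5d differed by -0.11 and 0.10 (adjusted p = 0.475 and 0.607), and Atp5k, a membrane subunit, by 0.10 (adjusted p = 0.656). Subunit c of the rotor comes from 3 genes that encode the same mature protein with different import sequences. Atp5g1, Atp5g2 and Atp5g3 differed by -0.05, -0.17 and 0.02 (adjusted p = 0.855, 0.351 and 0.939), and of the 3 only Atp5g2 had both KO libraries below both WT libraries, at 9.79 and 9.59 against 9.83 and 9.90.

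What nuclear subunits shared was a shift between the KO libraries. KO A was above KO B in 75 of 79 (94.9%), against 50.4% of all tested genes, with a median of 0.14 against 0.0019 for all. The exceptions were Atp5l, Atp5g3, Cyc1 and Ndufb6, all within 0.03 log2 units. Each complex showed it, with medians of 0.12 for complex I, 0.15 for II, 0.14 for III, 0.16 for IV and 0.15 for V. The largest differences were 0.71 for Cox6a2, 0.38 for Atp5b and 0.35 for Atp5g1. WT 2 was above WT 1 in most subunits as well, by a median of 0.03. In a sum over nuclear subunits, the shares of counts were 0.415% and 0.371% for KO A and KO B and 0.412% and 0.425% for the WT pair, so KO B alone lay apart. The mitochondrially encoded mRNAs had the same shift, with KO A above KO B in 12 of 13 and a median of 0.14. The shift was no test of genotype, since both libraries carry the same label.

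**Figure D4:**
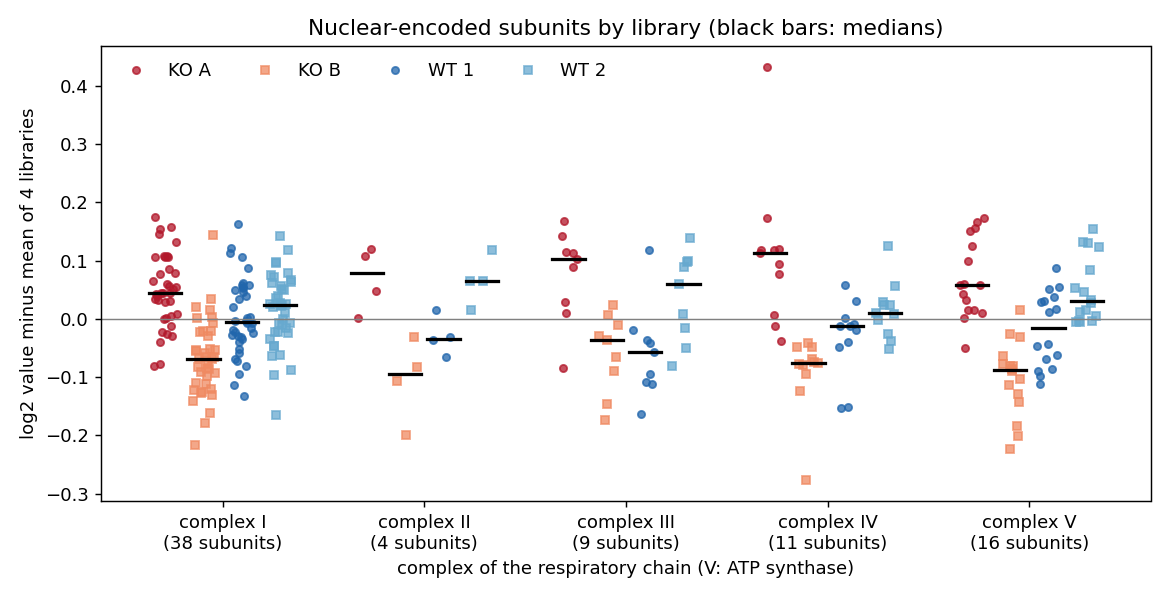
Value of each tested nuclear subunit minus its mean over 4 libraries (log2) by complex and library, with black bars at the medians. KO A lies above KO B in every complex, by medians of 0.12 to 0.16, while KO and WT medians interleave.

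The shift between KO libraries extended to other genes for protein complexes, and outside the chain it varied with transcript length. Of tested genes outside the chain with an annotated transcript under 1000 bases 62.0% were higher in KO A, of those with 4000 bases or more 41.8%. The nuclear subunits have short transcripts, with a median of 809 bases against 2952.5 for all tested genes. Within the subunits, KO A was higher in 93.9% of the 49 under 1000 bases and in 96.7% of the 30 longer ones, with medians of 0.14 in both. Cytosolic ribosomal protein genes (96.5% of 85, median 0.15), proteasome subunits (87.2% of 39, median 0.14) and mitochondrial ribosomal proteins (70.1% of 77, median 0.09) lay the same way. These families were picked after the shift in the subunits was seen. The KO libraries also differed in summed counts of cell markers. KO A exceeded KO B for genes of dendritic cells (473434 against 433306), plasmacytoid dendritic cells (43367 against 24277), monocytes, neutrophils and T cells. KO B exceeded KO A for macrophage (36071 against 26696), erythroid (87561 against 62181), NK cell (25495 against 21479) and B cell genes. The part of transcript length, RNA quality, sex or cell mixture in the shift was not tested beyond these values.

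**Figure D5:**
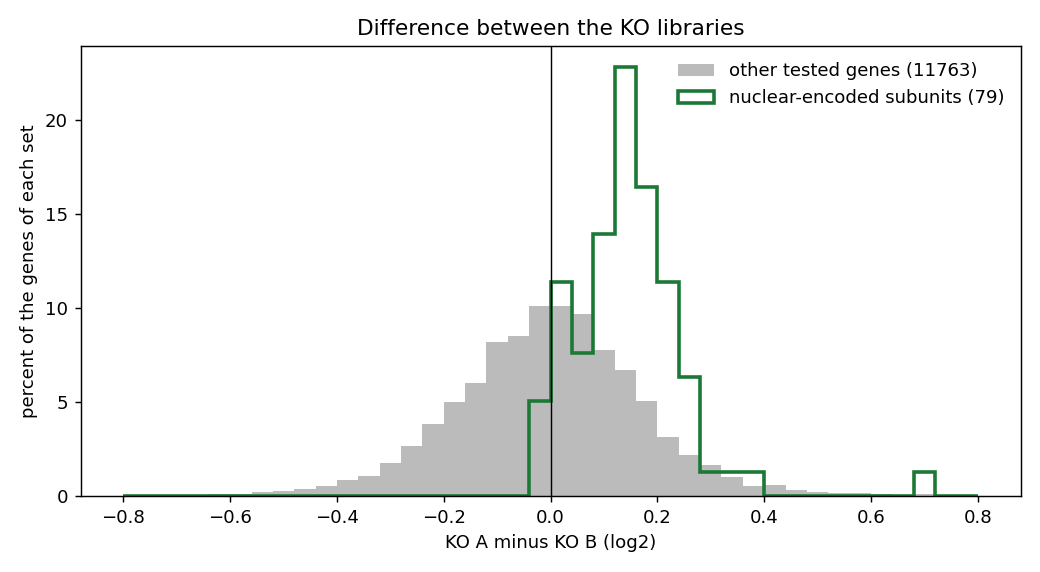
KO A minus KO B (log2) as the percent of genes per bin of 0.04, for 79 nuclear-encoded subunits (green line) and 11763 other tested genes (grey; values beyond 0.8 on either side are not drawn). The subunits centre on 0.14 and the other genes on 0.

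Other genes of mitochondrial energy metabolism were taken from lists and not by how they moved, and their calls are read against the 6.93% of all tested genes past the threshold. Among 20 enzymes of the citric acid cycle and pyruvate entry, 0 were higher and 1 was lower past the threshold. That gene was Mdh2, mitochondrial malate dehydrogenase, which stood at 12.77 and 12.70 in KO against 13.62 and 13.44 in WT. It fell by 0.80 (SE 0.0926, adjusted p = 0.0147 in limma), to 0.554 of WT counts, with no overlap between groups. Of 7 genes for other routes of electron entry 1 rose: Sqor, which oxidizes sulfide into the quinone pool, from 10.59 and 10.32 in WT to 10.93 and 11.00 in KO (0.51, adjusted p = 0.0488). Of 9 mitochondrial antioxidant genes 1 rose: Gsr, glutathione reductase, from 13.02 and 12.74 to 13.36 and 13.55 (0.58, adjusted p = 0.0442). Both adjusted p lie close to the threshold, and 1 call in a list of this size is near the share over all tested genes.

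Genes that build and run the chain were counted in the same way, against the same 6.93% of all tested genes. Most of these lists are so short that a count of 0 is near that share. Counts past the threshold were 0 of 7 further complex I assembly genes, 0 of 2 for complex II, 0 of 6 for complex III, 0 of 21 for complex IV and 0 of 4 for the ATP synthase (limma, adjusted over all genes). They were also 0 of 24 genes of mitochondrial transcription and RNA handling, 0 of 9 of mitochondrial DNA replication and 0 of 77 mitochondrial ribosomal proteins. The lists of 11 biogenesis regulators, 13 genes of coenzyme Q synthesis, 7 carriers and 15 genes of import and cristae gave 0 as well. In transcription and RNA handling, both KO libraries were below both WT libraries in 11 of 24 genes, against 28.2% of all tested genes. They were above both in 2 of 24, against 28.1%. The median there was -0.07, and 1 of the 24 had an unadjusted p under 0.05 in limma. KO libraries lay below WT libraries in 22 of 77 mitochondrial ribosomal proteins, 7 of 21 complex IV assembly genes and 2 of 11 biogenesis regulators. In the same lists they lay above WT libraries in 9 of 77, 3 of 21 and 5 of 11. The median of the biogenesis regulators was 0.07. The 2 mitochondrial rRNA and 22 tRNA genes of the annotation matched no row and are not analysed here.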

How the data were processed

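Total RNA of flow-sorted splenic dendritic cells was sequenced in 2 KO and 2 WT libraries with a stranded total RNA kit for small inputs, per the labels' protocols. Salmon 1.10.1, DESeq2 and the build GRCm39 are named, with no role or order, per the submitters' processing notes. The deposited table holds log2 values that the authors had scaled between libraries and variance-stabilized. All libraries share the lowest value, 8.04, and back-transformed normalized counts were computed by inverting the transform from that value. These sums follow scaling and do not give sequencing depth.

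Symbols and lengths came from GENCODE M21 (an older build, so no coordinates of the members are taken from it), and 17289 of 17300 identifiers matched. Transcript length is the median of the best supported principal transcripts. The 11864 genes whose mean exceeded the lowest value by 1 log2 unit or more were tested with limma 3.58.1 in R 4.3.3, with an intensity trend, two-sided, with p-values adjusted by Benjamini-Hochberg. Genes under an adjusted p of 0.05 passed, and total degrees of freedom were 6.48. The fit was tested on simulated data. No set test was run.

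Members and lists were chosen with earlier results of these data known. Named were all mitochondrial mRNAs, fixed core subunits and isoform pairs, and, as no member of any complex passed, the 2 highest and 2 lowest differences of each complex. The values of 1 fixed subunit are not reported here. From other lists at most 3 genes past the threshold were named. Other filters, scales, scalings and moderation and leaving out each library were tried.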

Additional observations from a re-analysis of the deposited data

How the results depend on the processing

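Under all 13 alternatives tried (other filters, log2 of the back-transformed count plus 1 or 10, quantile normalization, median centring, equal nuclear-encoded totals, no trend, robust moderation and leaving out each library) 0 members passed the threshold in limma, with 1 to 15 members at an unadjusted p under 0.05. The smallest adjusted p of any member lay between 0.0536 (without WT 2) and 0.243 (without WT 1). Of all tested genes, 0 passed without KO A and 3 without KO B, so those settings say little about the members. The median difference of mitochondrial mRNAs ran from -0.36 without WT 2 to -0.08 without WT 1, with 11 or 12 of 13 below 0 in each setting. The median of nuclear subunits minus that of mitochondrial mRNAs ran from 0.05 without WT 1 to 0.38 without WT 2. The median of nuclear subunits was -0.0867 with equal nuclear-encoded totals, which moved the median of all tested genes to -0.07. With a library left out it ran from -0.0782 (without KO A) to 0.0506 (without KO B). The difference in the share of counts in mitochondrial mRNAs, -0.156 percentage points, ran from -0.237 to -0.0761 when a library was left out, and rescaling cannot change a share. Among the 50 named members, which missed the threshold in each setting, between 0 and 12 had the other sign per setting. Chosen after seeing the data, the scalings left KO A above KO B in 70 to 74 of 79 subunits, and KO below WT in 8 to 10 mitochondrial mRNAs. No paired analysis was possible because the KO columns do not carry the replicate numbers of the KO titles.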
